A study of Mus musculus with 6 samples.

Results

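The translation initiation and elongation factors were taken as every row of the deposited transcript table whose gene name starts with Eif or Eef followed by a digit, leaving out the Eif2ak kinases. This gave 112 of 15113 listed transcripts, from 54 genes at 54 of 7171 StringTie loci, the assembled gene regions over which transcripts can be summed. The RNA came from C17.2, an established line of mouse neural progenitors with stem cell properties, labelled with the strain CD1 x C57BL/6. The control group (2 libraries) was grown in DMEM/F12 with 10% fetal bovine serum, the heme group carries the label of heme treatment, and the neural induction group (2 libraries) was kept in Knockout DMEM with GlutaMAX, N2 supplement and 10 ng/ml BDNF, a neurotrophin. All groups come from this 1 line, while heme dose, heme medium and the times of exposure are not given in the sources consulted. The labels give 2 heme replicates, but every value of the second heme column was the first one multiplied by a factor between 1.25 and 1.5, and the same 1150 transcripts were at 0 in both. The pair was counted as 1 sample and the first column was used, so heme stands on 1 library and its differences have no replicate check of their own.

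Initiation factors bring the initiator tRNA, the small ribosomal subunit and the mRNA together: eIF4E binds the cap, eIF4G is the scaffold, eIF4A unwinds, eIF3 bridges to the ribosome, and eIF2 carries the initiator tRNA under the control of its exchange factor eIF2B. Elongation factors then feed the ribosome, eEF1A with charged tRNAs, eEF2 with the translocation step and eIF5A with relief of stalling. Heme is tied to this machinery in erythroid cells through a kinase that phosphorylates eIF2, and mRNAs of many of these factors are known to be controlled by the mTOR pathway at the level of translation, which RNA levels do not show.

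Mapped sequence came to 4.14 to 4.56 gigabases a library, and levels are given as FPKM, the fragments per transcript corrected for its length and for the library total. The factors took 2.55% to 2.7% of all listed FPKM. Of the 112 transcripts, 84 are annotated as protein-coding, 14 as retaining an intron, 7 as targets of nonsense-mediated decay, 5 as processed transcripts and 2 as pseudogenes. Names do not make every member a factor: Eef2k is the kinase of eEF2, Eif4ebp1 and Eif4ebp2 encode repressors of eIF4E, Eif4enif1 encodes its nuclear import partner, and Eif4a-ps4 and Eif3s6-ps2 are pseudogenes whose reads may be shared with their parent genes. The progenitor markers Nes, at 107.5 to 131.5 FPKM, Vim, at 663 to 798, and Sox2, at 13.6 to 19.8, were present in all 5 libraries. The 6 listed of 10 progenitor markers summed to 1042 and 892 FPKM in the controls, 1024 with heme, and 1012 and 1013 after induction. The 2 listed of 9 neuron markers, Tubb3 and Map2, summed to 23.3 and 21.8 FPKM in the controls, 32.6 with heme, and 23.2 and 29.0 after induction. Collagen and fibronectin genes were also present, with 4 listed of 5 mesenchymal markers summing to 1846 to 2290 FPKM, and 3 listed of 5 oligodendrocyte markers to 112 to 131 FPKM. The lists of astrocyte, erythroid and microglia markers had no listed transcript, and the part of other cell states in the results below was not tested. In such bulk samples fewer cells of a type and less RNA per cell cannot be told apart.

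Eif5a, which encodes the only protein known to carry hypusine, gave the only member transcript past the test. Its main transcript in growth medium, ENSMUST00000108613, stood at 719 and 732 FPKM in the controls and 741 with heme, but at 86.8 and 94.8 in the induction libraries. Both induction libraries lay far below the other 3, with no overlap. In limma the transcript fell by 2.99 on the log2(FPKM + 1) scale after induction, with a standard error of 0.075 and an adjusted p of 0.0296 over all 13737 transcripts tested. Against heme it fell by 3.02, with a standard error of 0.0919 and an adjusted p of 0.0096 in limma. Over all transcripts, 0.00728% passed in induction against control, 0.0801% in induction against heme and 0.0728% in heme against control. The remaining 108 tested member transcripts did not pass in any of these comparisons. At an unadjusted p under 0.05 there were 3 members of 109 with heme (4.95% of all transcripts), 4 after induction (4.98%) and 3 in induction against heme (4.96%). The Eif5a call was lost when control 1, control 2, induction 1 or induction 2 was left out, with adjusted p of 0.401, 0.366, 0.584 and 0.742 in limma, and with no filter on low values (0.095), while the log2 difference stayed between −2.92 and −3.05.

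The loss of that transcript was made up by a different one in each induction library. ENSMUST00000108612 stood at 733 FPKM in induction 1, against 4.89 and 2.19 in the controls, 3.79 with heme and 3.11 in induction 2. ENSMUST00000071026 stood at 679 FPKM in induction 2, against 0.0672 and 0.456 in the controls, 0.458 with heme and 0.102 in induction 1. The induction replicates thus shared the low level of the first transcript and shared neither of the transcripts in its place. As shares of the locus sum, ENSMUST00000108613 made up 92.1% and 94.1% in the controls, 96.1% with heme, and 10.3% and 11.9% after induction. That difference of −82.0 percentage points had a standard error of 5.35 and, tested as a share, did not pass limma's adjustment, with an adjusted p of 0.203.

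**Figure D1:**
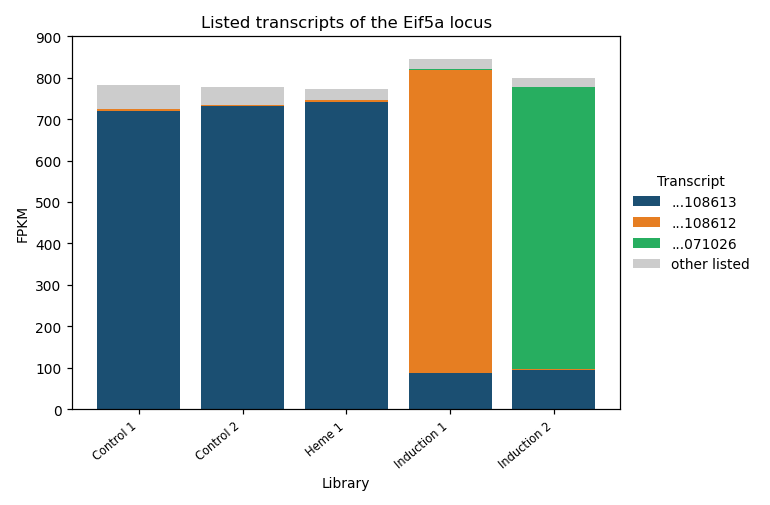
FPKM of the listed transcripts of the Eif5a locus, stacked for each of the 5 libraries; the colours stand for the 3 leading transcripts by the last digits of their Ensembl identifiers, and grey for all others listed. Bars are similar in height, from 771 to 844 FPKM, while the leading transcript is 1 in the controls and heme and another in each induction library.

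The locus sum differed far less. The Eif5a locus (GRCm38 chr11:69916720-69921958, minus strand) summed to 781 and 778 FPKM in the controls, 771 with heme, and 844 and 799.8 after induction. Both induction libraries lay above the controls, by 0.08 on the log2 scale with a standard error of 0.0694, and this did not pass limma (adjusted p = 0.935). The 7 named Eif5a transcripts in the table encode the same 462 coding bases in GENCODE M21, so the exchange lay outside the coding sequence. The 3 leading transcripts differ in their noncoding first exon: chr11:69921163-69921386 (224 bases) for ENSMUST00000108613, chr11:69920801-69920940 (140 bases) for ENSMUST00000108612 and chr11:69921822-69921958 (137 bases) for ENSMUST00000071026. Grouped by first exon, the 3 transcripts that begin with the 224-base exon summed to 731 and 754 FPKM in the controls, 756 with heme, and 92.4 and 101.3 after induction. The 2 transcripts with the 140-base exon summed to 5.23, 3.96, 4.23, 741 and 3.42 FPKM in the same order of libraries.

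The sequences before these starts are shown because the exchange, as the table records it, is one between annotated start sites. RefSeq lists 6 Eif5a starts, and each sequence is the 150 bases upstream of the nearest (GRCm38.p6, minus strand, 5′ to 3′, with CG pairs in capitals). The first lies before the start used by ENSMUST00000108613 (chr11:69921387-69921536), the second before a start that lies 7 bases upstream of that of ENSMUST00000108612 (chr11:69920948-69921097), and the third lies before that of ENSMUST00000071026 (chr11:69921959-69922108).
Eif5a, before ENSMUST00000108613: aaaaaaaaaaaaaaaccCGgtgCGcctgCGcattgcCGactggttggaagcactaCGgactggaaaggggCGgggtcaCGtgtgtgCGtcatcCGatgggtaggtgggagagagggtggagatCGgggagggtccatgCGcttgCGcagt
Eif5a, before ENSMUST00000108612: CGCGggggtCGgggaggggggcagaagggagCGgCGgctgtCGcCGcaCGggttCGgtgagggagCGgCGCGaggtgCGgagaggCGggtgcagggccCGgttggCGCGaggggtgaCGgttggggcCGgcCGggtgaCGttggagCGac
Eif5a, before ENSMUST00000071026: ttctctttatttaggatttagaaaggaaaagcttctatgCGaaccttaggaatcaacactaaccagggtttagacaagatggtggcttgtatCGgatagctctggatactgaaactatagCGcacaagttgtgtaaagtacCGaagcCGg

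The window before the growth-medium transcript has a GC content of 58.7% and 12 CG pairs. The one before ENSMUST00000108612, the leading transcript of induction 1, has 78.0% and 22 pairs, and that before ENSMUST00000071026, the leading transcript of induction 2, has 41.3% and 5 pairs. Across all 32851 RefSeq windows of this length the median GC content is 54.0% and the median number of CG pairs is 4. The letters TATAA, searched on both strands, occur in none of the 3 windows and in 14.2% of all windows. The transcripts share everything except these short first exons and, in ENSMUST00000071026, 1 more short exon, so their separate FPKM rest on few distinguishing bases, and how far the assembler's division of reads entered the exchange was not tested.

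Summed over transcripts, the translation factors were among the steadier loci. None of the 53 tested member loci passed limma with heme, where 0.0426% of all 7039 loci did, after induction (0.0142%), or in induction against heme (0.0568%). At an unadjusted p under 0.05 the counts were 0, 0 and 1 (Eif1a), beside 3.59%, 3.05% and 3.38% of all loci. The median log2 difference was −0.02 with heme and 0.01 after induction, beside 0.00 and 0.02 over all loci. The coefficient of variation across the 5 libraries had a median of 4.66% over the members and 11.5% over all loci, and 44 of 53 members (83.0%) against 43.8% of all loci lay under 10%. The members were also higher, with a median level of 74.5 FPKM against 18.1. Among loci with a mean of at least 20 FPKM, the median coefficient of variation was 4.27% for 46 members and 7.23% for all 3293 loci. The members were still higher there, with a median level of 92.1 FPKM against 42.8, so this comparison is not matched for level.

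**Figure D2:**
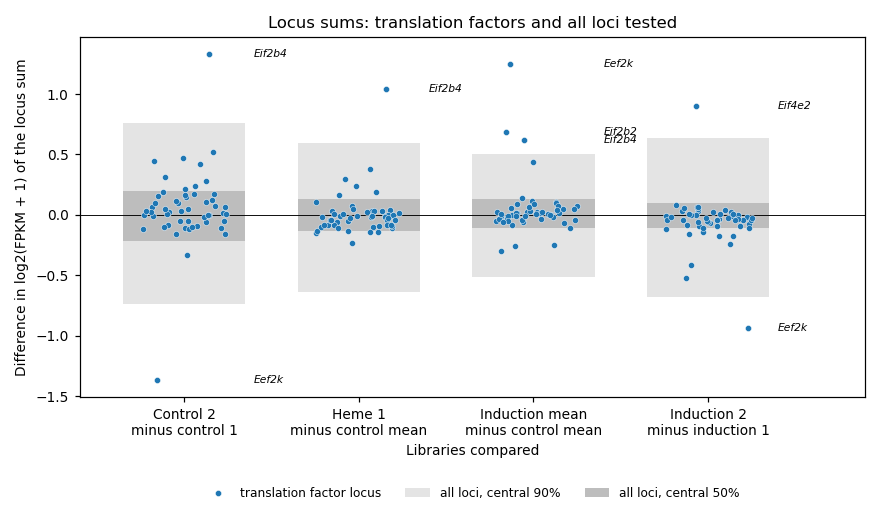
Differences in log2(FPKM + 1) of locus sums for the 53 tested translation factor loci (points) beside all 7039 loci tested (light and dark bars, the central 90% and 50% of those loci). Most points lie within 0.2 of 0 in each comparison, 48 of 53 with heme and 46 of 53 after induction, beside 42 of 53 between the 2 controls.

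The median absolute log2 difference between the 2 controls was 0.10 over the members (0.21 over all loci), and between the 2 induction libraries 0.05 (0.10). It was 0.05 for heme from the control mean (0.13) and 0.04 for the induction mean from the control mean (0.12), where averaging narrows the spread. The heme library lay above both controls at 11 of 53 member loci (20.8%, beside 25.5% of all loci) and below both at 21 (39.6%, beside 31.1%). Both induction libraries lay above both controls at 13 (24.5%, beside 18.2%) and below both at 5 (9.43%, beside 13.0%).

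Elongation factors were the most abundant members. The Eef1a1 locus, which encodes the tRNA-carrying eEF1A, summed to 5995 and 5554 FPKM in the controls, 5749 with heme, and 5872 and 5855 after induction. These sums hold a short RNA of 108 bases inside the locus, Gm26377, at 2065 to 2252 FPKM. It lies on the same strand within the span of the coding transcript, and whether its reads came from Eef1a1 RNA was not tested. The coding transcript ENSMUST00000042235 alone stood at 2829.9, 2591, 2747, 2746 and 2725 FPKM in the order control 1, control 2, heme, induction 1 and induction 2. With heme and after induction it lay between the controls, so neither group stood apart.

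Eef2, the translocase, summed to 1447 and 1398 FPKM in the controls, 1456 with heme, and 1380.5 and 1415 after induction. Its log2 difference was 0.03 with heme and −0.03 after induction, each under its standard error (0.089 and 0.0728). Eef2k, the kinase that inhibits it, was listed near the floor, at 1.58 and 0 FPKM in the controls, 0.976 with heme, and 4.27 and 1.75 after induction. Both induction libraries were above both controls there, but induction 2 was closer to control 1 than to induction 1, and the difference did not pass limma (adjusted p = 0.935).

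The nucleotide exchange subunits of the eEF1 complex were steady as sums except Eef1b2. Eef1g summed to 559 and 566 FPKM in the controls, 560.4 with heme, and 592 and 577 after induction. Eef1d, at 110.1 and 105.9 FPKM in the controls, was lowest with heme, at 91.6, and stood at 111.0 and 99.7 after induction. Its log2 difference of −0.23 with heme was the largest negative one among the tested members, with a standard error of 0.103, and did not pass limma (adjusted p = 0.998). Eef1b2 summed to 254 and 365 FPKM in the controls, 360.1 with heme, and 332 and 249 after induction, and the groups overlapped.

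**Figure D3:**
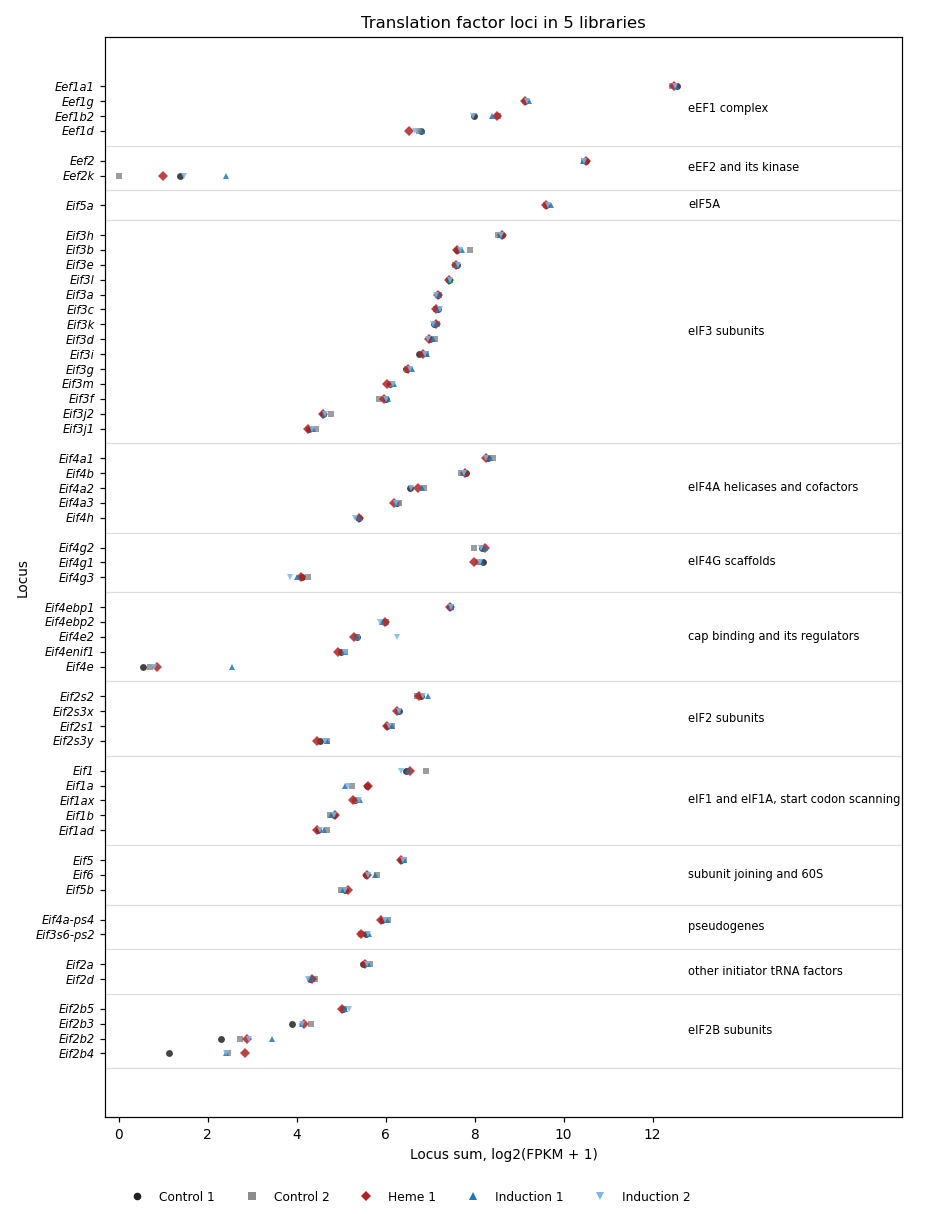
Locus sums of the 54 translation factor loci as log2(FPKM + 1), grouped by role, with 1 mark per library. The marks of most loci overlap, from Eef1a1 at 5554 to 5995 FPKM down to Eif2d at 18.0 to 20.3, and the widest spreads are at weakly listed loci: Eef2k, Eif4e and Eif2b4.

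Of the 14 loci of eIF3, the large complex that holds the small ribosomal subunit, none differed from control by more than 0.14 on the log2 scale with heme or 0.10 after induction. Eif3h led them at 392 and 369.9 FPKM in the controls, 393 with heme, and 376 and 386 after induction. The sum over all 14 was 1866 and 1907.5 FPKM in the controls, 1864 with heme, and 1907 and 1888 after induction, a coefficient of variation of 1.11%. Eif3a, the scaffold subunit, stood at 144.5 and 145.2 FPKM in the controls, 142.7 with heme, and 144.3 and 138.5 after induction. It lay below both controls in both induction libraries, the only subunit to do so (7.14% of the 14, beside 13.0% of all loci). Eif3g, Eif3f, Eif3c, Eif3l and Eif3m were the 5 subunits above both controls in both induction libraries (35.7%, beside 18.2% of all loci). The largest of these log2 differences was 0.10, for Eif3f, at 63.7 and 57.0 FPKM in the controls, 61.5 with heme, and 65.3 and 63.7 after induction. Its lower edge in the induction group, 63.668, barely cleared the higher control, 63.662. The single widest spread of the group was at Eif3b, where control 2 stood at 236 FPKM and the other 4 libraries between 194 and 209. Among the rest, Eif3e ranged from 188 to 197 FPKM, Eif3k from 133.5 to 141, Eif3d from 122 to 137, and the loosely bound subunit copies Eif3j1 and Eif3j2 from 18.2 to 20.7 and from 23.0 to 26.3.

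Among the helicases and their cofactors, Eif4a1 stood at 316 and 338 FPKM in the controls, 303 with heme, and 322 and 307 after induction. Heme was the lowest library, 0.11 below the control mean on the log2 scale with a standard error of 0.0884. Eif4a3, the helicase of the exon junction complex, was below both controls in every treated library, at 71.6 FPKM with heme and 74.2 and 74.1 after induction against 75.0 and 77.5. Eif4h, a helper of eIF4A, stood at 41.3 and 41.2 FPKM in the controls, 41.4 with heme, and 41.5 and 38.4 after induction. Eif4b, another helper, ranged from 206 to 223 FPKM, and the helicase paralogue Eif4a2 from 92.3 to 115, its lowest and highest values both in controls. Sums over the 5 loci of this group ranged from 730.0 to 778 FPKM, and the log2 differences lay between −0.11 and 0.03 in both comparisons.

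With heme the scaffolds lay on opposite sides of the controls, by amounts that did not pass. Eif4g1 was lowest with heme, at 252 FPKM against 292 and 268 in the controls and 282 and 278 after induction. Eif4g2, the relative that works without the cap-binding protein, was highest with heme, at 301 FPKM against 284 and 254 in the controls and 299.6 and 281 after induction. The least abundant, Eif4g3, stood at 16.4 and 17.9 FPKM in the controls, 16.1 with heme, and 15.2 and 13.3 after induction, where both libraries lay below the controls by 0.25 on the log2 scale with a standard error of 0.131.

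Regulators of cap binding differed in steadiness, and none passed as a locus sum. Eif4ebp1, the mTOR-regulated repressor of eIF4E, had the smallest spread of all members, at 173.8 and 177.3 FPKM in the controls, 174.7 with heme, and 176.5 and 176.8 after induction, a coefficient of variation of 0.843%. Eif4ebp2 stood at 62.4 and 63.5 FPKM in the controls and 61.8 with heme, and both induction libraries were below, at 59.2 and 57.4. Eif4enif1 was lowest with heme, at 29.5 FPKM against 31.0 and 32.8 in the controls and 32.5 and 33.2 after induction. Eif4e2, a cap-binding homologue, was near 40 FPKM in every library but one, at 75.1 in induction 2 against 37.8 to 40.1 elsewhere. The cap-binding gene Eif4e appears only through a short transcript of 729 bases, ENSMUST00000200100, at 0.446 and 0.636 FPKM in the controls, 0.806 with heme, and 4.87 and 0.739 after induction. It stayed below the filter of 1 FPKM in 2 libraries and was the member locus not tested, and its other transcripts are not analysed here.

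As locus sums, the eIF2 subunits, which carry the initiator tRNA and are the target of the stress kinases, stayed near their control levels. Eif2s1, the phosphorylated subunit, stood at 64.6 and 69.5 FPKM in the controls, 64.4 with heme, and 69.9 and 66.0 after induction. Eif2s3x was the steadiest of the 4, at 77.4 and 76.7 FPKM in the controls, 75.0 with heme, and 78.0 and 77.4 after induction, and Eif2s3y, its copy on chromosome Y, ranged from 21.1 to 24.8. Eif2s2 stood at 110.7 and 103.2 FPKM in the controls, 106.9 with heme, and 122.1 and 113.1 after induction, 0.14 above the control mean on the log2 scale with a standard error of 0.0804. Of the exchange factor eIF2B, the catalytic Eif2b5 stood at 31.8 and 32.6 FPKM in the controls, 31.6 with heme, and 33.0 and 35.0 after induction. Eif2b2 was weakly listed, at 3.91 and 5.57 FPKM in the controls, 6.41 with heme, and 9.93 and 6.60 after induction, above both controls in all 3 treated libraries. The only listed Eif2b2 and Eif2b4 transcripts are annotated as noncoding, so these sums do not stand for the genes' coding output. Eif2b4 lay at 1.17 FPKM in control 1 and between 4.27 and 6.12 in the other 4 libraries.

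Spread was wider among the start codon scanning factors, with a median coefficient of variation of 7.26% and control 2 apart at Eif1. Eif1, which guards the choice of start codon, stood at 86.4 and 119.8 FPKM in the controls, 92.4 with heme, and 89.0 and 80.8 after induction. Eif1a was at 46.8 and 37.1 FPKM in the controls, 47.7 with heme, and 32.8 and 34.4 after induction. Its log2 difference after induction was −0.30 with a standard error of 0.136, below both controls, and it did not pass limma (adjusted p = 0.935). Its X-linked relative Eif1ax was above both controls after induction, at 41.8 and 40.9 FPKM against 38.4 and 39.2, and at 37.6 with heme. Eif1b, at 28.2 FPKM with heme against 27.7 and 25.7 in the controls, and Eif1ad, at 20.8 against 21.2 and 24.7, differed from the control means by 0.08 and −0.13 on the log2 scale.

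Eif5, which triggers GTP hydrolysis by eIF2, ranged from 80.4 with heme to 84.8 FPKM in induction 1. Eif6, a factor that keeps the large ribosomal subunit free, stood at 46.1 and 54.7 FPKM in the controls, 46.9 with heme, and 53.4 and 47.2 after induction, with the groups overlapping. Eif5b, which joins the subunits, stood at 33.0 and 30.9 FPKM in the controls, 34.5 with heme, and 31.8 and 33.0 after induction. Of the pseudogenes, Eif3s6-ps2 was above both controls after induction, at 48.6 and 47.3 FPKM against 45.8 and 42.4, and at 42.4 with heme.

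The split among transcripts was examined at loci with several of them. At the 26 member loci with at least 2 listed transcripts and 5 FPKM in every library, some transcript's share ranged over at least 20 percentage points across the libraries at 16 (61.5%, beside 73.2% of all 3385 such loci). Shares moved that far between the 2 controls at 6 of the 26 (23.1%, beside 39.8% of all such loci) and between the 2 induction libraries at 9 (34.6%, beside 40.8%). They did so between heme and the control mean at 6 (23.1%, beside 40.1%) and between the induction and control means at 5 (19.2%, beside 34.4%). In limma on shares none of the 77 member transcripts tested passed with heme, where 0.816% of all 11648 did, or after induction, where 0.0% did. At an unadjusted p under 0.05 there were 4 and 2, beside 8.83% and 6.15% of all. Of the 95 transcripts called over the whole table with heme, 29 were listed at 0 in the other 4 libraries. A second test, limma's diffSplice on log2 values, called 1 member with heme (Eif4g3), where 2.93% of all transcripts passed, and 0 after induction, where 1.88% did.

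Exchanges at Eif2s2 and Eef1b2 cut across the groups, pairing control 1 with induction 2. Eif2s2 (chr2:154871410-154892935) showed this most fully. Its coding transcript ENSMUST00000099173 stood at 89.8 FPKM in control 2, 103.4 with heme and 103.2 in induction 1, but at 9.51 in control 1 and 8.18 in induction 2. An unnamed assembled transcript of similar extent, MSTRG.11723.3 (9 exons and 2367 bases, beside 9 and 2542), took its place there, at 93.4 and 95.8 FPKM. It was listed at 0 in the other 3 libraries, and how far the assembly entered this exchange was not tested. Eef1b2 (chr1:63176825-63180486) split along the same line. The decay-annotated transcripts ENSMUST00000135877 and ENSMUST00000174890 stood at 129.1 and 89.4 FPKM in control 2, 142.9 and 83.0 with heme, and 113.4 and 83.0 in induction 1. In control 1 they stood at 11.7 and 0.252 FPKM and in induction 2 at 20.3 and 0.589. At Eif4g1 the intron-retaining ENSMUST00000132320 paired control 1 with induction 1 instead, at 71.3 and 70.2 FPKM against 16.0 in control 2, 14.8 with heme and 15.8 in induction 2. Decay-annotated transcripts took 0.975% and 1.16% of the members' FPKM in control 1 and induction 2, and 2.7% to 2.94% in the other 3. These totals include ENSMUST00000135877 and ENSMUST00000174890 of Eef1b2, which split the libraries along the same line, so they are not a separate result.

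**Figure D4:**
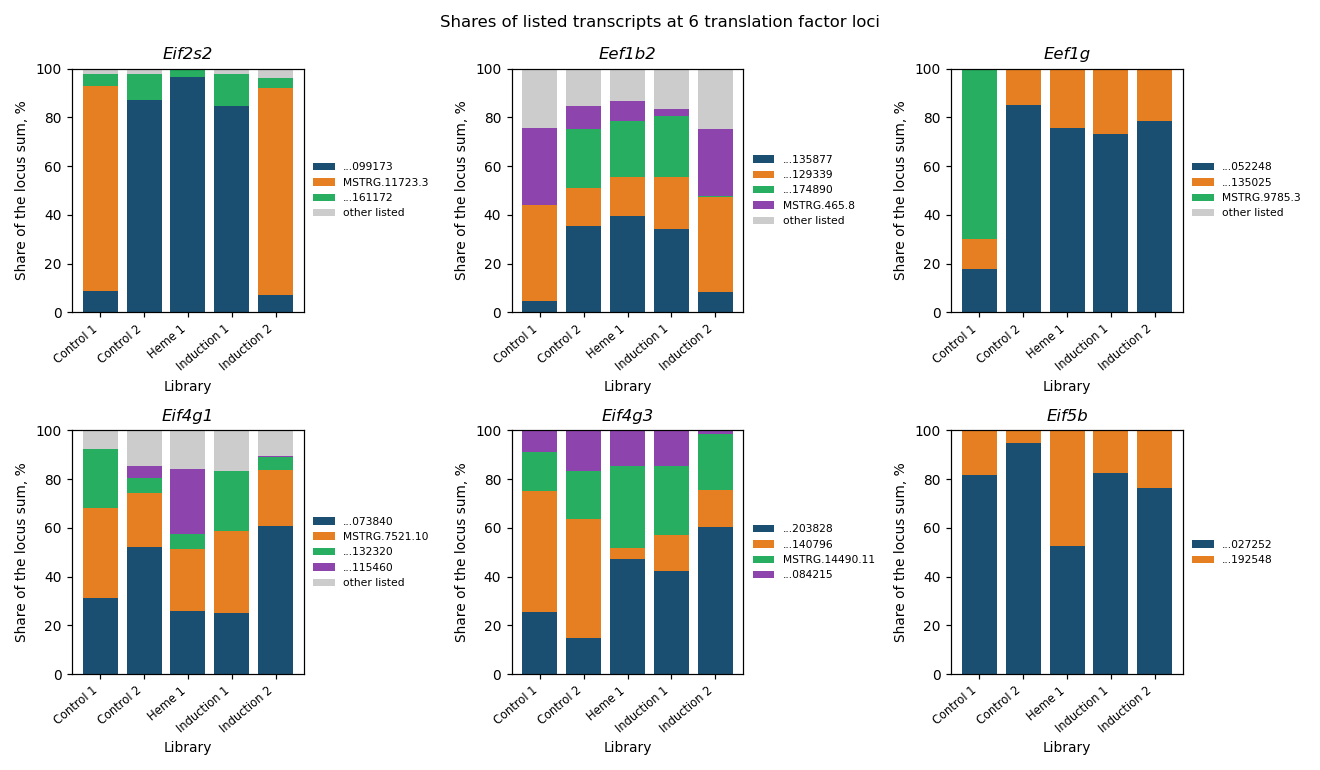
Shares of the locus sum, in percent, of the listed transcripts at 6 translation factor loci in each library; colours stand for the leading transcripts (last digits of the Ensembl identifier, or the StringTie name) and grey for the rest. Eif2s2 and Eef1b2 pair control 1 with induction 2, Eef1g sets control 1 alone apart, and Eif5b sets heme apart.

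At Eef1g (chr19:8967041-8978479) control 1 alone stood apart. The coding transcript ENSMUST00000052248 was at 98.3 FPKM in control 1 and at 481, 425, 432 and 453 in control 2, heme and the 2 induction libraries. The unnamed MSTRG.9785.3 was at 389.6 FPKM in control 1 and at 0 in the rest. An intron-retaining transcript of the same locus, ENSMUST00000135025, was at 69.8 and 84.5 FPKM in the controls, 135.6 with heme, and 155.6 and 121.1 after induction, above both controls in all 3 treated libraries. Its log2 differences of 0.81 with heme and 0.83 after induction, with standard errors of 0.211 and 0.172, did not pass limma (adjusted p = 0.768 and 0.533). Eif3i showed a smaller case of control 1 apart, with the short coding transcript ENSMUST00000135055 at 1.39 FPKM there and 17.7 to 26.5 in the other 4 libraries.

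Heme stood apart at Eif5b, Eif4g1 and Eif4enif1, on its 1 library. The Eif5b coding transcript ENSMUST00000027252 (chr1:37998010-38055579) was at 26.9 and 29.4 FPKM in the controls, 18.1 with heme, and 26.2 and 25.3 after induction. The intron-retaining ENSMUST00000192548 was at 6.08 and 1.58 FPKM in the controls, 16.4 with heme, and 5.60 and 7.78 after induction. Its share was thus 47.5% with heme and 5.10% to 23.6% elsewhere, a difference from control of 35.8 points with a standard error of 9.34, which did not pass limma (adjusted p = 0.412). Of Eif4g1 (chr16:20672749-20692883), ENSMUST00000115460 held 26.9% of the locus with heme and 5.04% in control 2, and under 0.1% in control 1 and both induction libraries. That difference of 24.4 points had a standard error of 3.04 and an adjusted p of 0.118 in limma. Of Eif4enif1, ENSMUST00000020734 rested at 13.5 FPKM with heme, 4.71 and 6.13 in the controls, 6.87 in induction 1 and 0 in induction 2.

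At Eif4g3 (chr4:137993022-138208508) the 3 treated libraries lay below both controls in 1 transcript. ENSMUST00000140796 stood at 8.13 and 8.70 FPKM in the controls, 0.736 with heme, and 2.21 and 1.98 after induction. Its share was 49.7% and 48.5% in the controls, 4.56% with heme, and 14.6% and 14.8% after induction, with no overlap. In limma on shares the differences of −44.5 and −34.4 points, with standard errors of 6.87 and 5.61, had adjusted p of 0.167 and 0.314. With diffSplice in limma the heme difference had an adjusted p of 0.0356. Both comparisons share the same 2 controls. The coding ENSMUST00000203828 of this locus went the other way. Its share was higher with heme and in both induction libraries, with a range of 45.5 percentage points across the libraries.

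Induction 2 stood apart at Eif4e2 and Eif2d. ENSMUST00000113231 of Eif4e2 was at 24.1 and 27.9 FPKM in the controls, 24.0 with heme, 29.7 in induction 1 and 72.7 in induction 2. At Eif2d, an initiator tRNA factor, the coding ENSMUST00000068805 was at 12.5 and 10.2 FPKM in the controls, 8.92 with heme, 11.3 in induction 1 and 2.40 in induction 2. The unnamed MSTRG.940.2 was at 8.69 FPKM in induction 2 and under 0.01 in the other 4.

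Other loci shifted less. At Eif2a, which can bring tRNA to the ribosome without eIF2, the decay-annotated ENSMUST00000154219 held 26.7% and 37.0% of the locus in the controls, 37.2% with heme, and 50.8% and 43.8% after induction. Both induction libraries were above both controls, with 7.07 points between them and 10.3 points between the controls. ENSMUST00000106253 of Eif4a3 was lower than in both controls in every treated library, at 11.2 FPKM with heme and 8.48 and 10.4 after induction against 15.8 and 15.5, and did not pass limma after induction (adjusted p = 0.885). Steadiest of all 26 was Eef1a1, where no share ranged over more than 2.59 percentage points across the 5 libraries.

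The authors' deposited tables of comparisons call several of these exchanges. After Benjamini-Hochberg adjustment of the p-values in the authors' deposited table for heme, 10 of 112 member transcripts passed, 7 higher and 3 lower, beside 7.24% of all transcripts. In the authors' deposited table for induction 9 passed, 8 higher and 1 lower, beside 7.2% of all. For 100% of the transcripts above 10 FPKM in both libraries, the log2 fold change in the authors' deposited tables lay within 0.1 of the ratio of replicate 1 to control replicate 1. Of the members called there, 8 of 10 with heme and 5 of 9 after induction lay within 1.5-fold of control 2, on FPKM + 1. Among the members those tables call are ENSMUST00000052248 of Eef1g, ENSMUST00000099173 of Eif2s2 and ENSMUST00000135877 of Eef1b2, whose levels in control 1 were far from those in control 2. Eif5a ENSMUST00000108612 has a log2 fold change of 7.17 in the authors' deposited table for induction, and ENSMUST00000071026 one of 0.23; the latter was high in induction 2 alone.

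Genes of translation outside the member set, among them the Eif2ak kinases, gave no call either. Of a list of 56, covering termination, poly(A) binding, hypusine and polyamine synthesis, eIF2 kinases, mTORC1 and mitochondrial translation, 41 were listed and tested as locus sums. With heme 0 passed in limma, where 0.0426% of all loci did, and after induction 0, where 0.0142% did. An unadjusted p under 0.05 was reached by 0 and 1 (Rps6kb1), beside 3.59% and 3.05% of all loci. The median log2 differences were −0.03 and 0.00. The hypusine enzymes, which modify eIF5A, differed little from control. Dohh stood at 31.6 and 31.1 FPKM in the controls, 33.6 with heme, and 33.9 and 33.8 after induction. Every treated library lay above both controls at Dohh. The log2 differences were 0.10 with heme and 0.11 after induction, with standard errors of 0.101 and 0.0827. Dhps stood at 12.3 and 10.6 FPKM in the controls, 10.5 with heme, and 13.4 and 11.7 after induction. The heme-regulated kinase Eif2ak1 was not analysed here, and the 3 other eIF2 kinases, Eif2ak2, Eif2ak3 and Eif2ak4, ranged from 4.23 to 11.1 FPKM with the groups overlapping. Pabpc1, the main poly(A)-binding protein, stood at 949 and 899 FPKM in the controls, 928 with heme, and 934 and 917 after induction. Paip2, its repressor, was at 50.6 and 65.5 FPKM in the controls, 26.1 with heme, and 51.4 and 24.5 after induction, so that heme and induction 2 were alike and induction 1 matched control 1.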

How the data were processed

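RNA sequencing libraries of C17.2 cells were analysed from the tables the authors deposited. HISAT2, StringTie and edgeR were used on GRCm38 (mm10), per the submitters' processing notes, without versions. FPKM was deposited by the authors, with the coverage signal per base of each listed transcript. Their 2 comparison tables hold a log2 fold change and a p-value per transcript, per the file headers. The ratio of coverage to FPKM, constant within a library, gives the mapped gigabases: 4.44 and 4.35 for the controls, 4.30 for heme, 4.56 and 4.14 for induction. Read counts are not used here, so no counting interval is given and no count model was run.

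FPKM was summed over the listed transcripts of each locus, and shares are percentages of that sum. The 5 distinct libraries entered 1 fit with limma 3.58.1 in R 4.3.3 (eBayes with trend, two-sided, 2 residual degrees of freedom) on log2(FPKM + 1), over features that reached 1 FPKM in 2 or more libraries. Benjamini-Hochberg adjustment ran over all features, with a threshold of 0.05. Shares were tested at loci with at least 2 listed transcripts and 1 FPKM in every library, for mean shares of 1 to 99%. The fit takes the spread of the single heme library from the others. An exact permutation test of 2 libraries against 2 cannot go below p = 0.333, nor can 1 against 2. Fold changes on log2(FPKM + 1) understate the change of low transcripts. The labels call the samples biological replicates and name no separate cultures, so p-values measure the spread between these libraries. On simulated data with planted induction differences, the fit was required only to return the right sign for nearly all of the largest ones. The heme comparison was not checked in this way.

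Named are members past the threshold, 23 fixed genes, up to 6 loci per direction and comparison with at least 5 FPKM and groups that do not overlap, and up to 8 transcripts per comparison with the largest difference in share. Other loci and transcripts named were chosen after their values were seen. Members, lists and rules were chosen with earlier results of these data known. Of the member transcripts, all 112 identifiers were found in GENCODE M21, 93 with the same coordinates. Promoter windows come from RefSeq (GRCm38.p6), with an entry for 41 of the 54 genes.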

Additional observations from a re-analysis of the deposited data

How the results depend on the processing

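The fall of Eif5a ENSMUST00000108613 after induction kept its direction under each alternative run, between −2.92 and −3.05 on the log2 scale, but not its call. The count of member transcripts called after induction, 1 in the report, was 0 with no filter on low values, 0 with a filter of 1 FPKM in at least 1 library, 0 with the replicate number as a block and 0 without a trend in the prior, an alternative chosen after seeing the data. Leaving out each control or induction library in turn gave 0 to 0, with 1 residual degree of freedom, and limma's adjusted p for the transcript was then 0.366 to 0.742. Against heme the count of 1 became 0 with the block, 0 with only the groups compared, 0 without the trend and 0 to 0 without 1 library. Treating all 6 columns as deposited, which counts the rescaled heme column as a replicate and gives all loci a median log2 difference of 0.21 with heme, gave more calls: 1 transcript with heme (Eif4g3), 2 in induction against heme, 1 locus sum with heme (Eif2b4), and 3 shares with heme and 2 after induction. The shares over all features in that run are not given here, so these counts are not read as a result about the members. diffSplice gave 1 with heme, where 2.93% of all transcripts passed. The replicate numbers showed no pairing in the values: the deviations of same-numbered libraries correlated at −0.05 over loci and −0.02 over transcripts. With 2 libraries a group this cannot settle whether same-numbered libraries share a culture or batch, which the labels do not say. The replicate block changed no other count. No locus sum and none of the 41 other translation genes was called under any of the remaining alternatives. Summing by gene name, which leaves out unnamed transcripts, moved some differences widely. The heme difference went from 0.0006 to 1.31 at Eif2s2 and from −0.005 to 0.85 at Eef1g, and the induction difference of Eef1g from 0.06 to 0.91. The steadiness of these 2 loci thus holds for sums that include unnamed transcripts. Of 37 named loci, up to 8 changed the sign of their heme difference without control 2 and up to 9 the sign of their induction difference without induction 2.

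The depth of 4.14 to 4.56 gigabases limits loci near 1 FPKM, such as Eef2k and Eif4e. FPKM of transcripts that share most of their length depends on how reads were divided among them, which the tables do not show. The 1 heme library leaves heme differences without a replicate check, and 2 libraries a group leave a wide margin around each induction difference.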
